A study of Mus musculus with 12 samples.

Results

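The cytochrome P450 genes of families CYP1, CYP2 and CYP3 were examined in whole livers of mouse fetuses at term. All genes whose symbol begins with Cyp1, Cyp2 or Cyp3 followed by a subfamily letter and a number were taken, which gave 53 of the 19938 genes measured, in 16 subfamilies. The study asked which genes depend on PPARα, the nuclear receptor for fatty acids encoded by Ppara, just before birth. Livers of 6 Ppara-/- and 6 Ppara+/+ fetuses were taken by cesarean section at embryonic day E19.5, with 1 liver per array. Every fetus came from heterozygous parents, and the Ppara null allele was carried in the germline and so in every cell of the fetus. The labels give the strain as SV129, whereas the methods of the study name a C57BL/6 background. The labels number the mice 1 to 6 within each genotype and also give each fetus an animal number, written KO_266 and KO_273 to KO_277 for Ppara-/- fetuses, and WT_265, WT_267, WT_270, WT_272, WT_280 and WT_281 for Ppara+/+ fetuses. According to the methods some livers of a genotype shared a litter, and the litter of each liver is not in the labels.

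Enzymes of these families sit in the membrane of the endoplasmic reticulum and use heme, molecular oxygen and electrons passed on from NADPH to oxidize drugs, toxicants, steroids and fatty acids. CYP1 genes are known as targets of the aryl hydrocarbon receptor, CYP2B and CYP3A genes as targets of the xenobiotic receptors CAR and PXR, and many CYP2C and CYP2J enzymes as epoxygenases of arachidonic acid. Many of these genes are switched on in mouse liver only around or after birth, and in the adult several are expressed mainly in hepatocytes near the central vein. PPARα itself is best known for the CYP4A genes, which lie outside these families.

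Of the 53 genes, 6 were lower and 1 was higher in Ppara-/- livers. Cyp2j5, Cyp2j6, Cyp2j9, Cyp2a22, Cyp2r1 and Cyp3a57 fell, and Cyp2f2 rose (limma, Benjamini-Hochberg adjusted p between 0.0022 and 0.032). The lowered genes made up 11.3% of the family, against 3.82% of all genes called lower, and the raised gene made up 1.89%, against 3.42% of all genes called higher. In either direction 13.2% of the family was called, and 7.24% of all genes. The log2 difference, Ppara-/- minus Ppara+/+, was negative for 37 of the 53 genes (69.8%), against 46.5% of all genes, and its median was -0.08, against 0.01 over all genes. Values are log2 signals, on which a step of 1 is a doubling and which do not compare transcript levels between genes, and a call is an adjusted p under 0.05 over all genes. An unadjusted p under 0.05 was found for 19 of the genes (35.8%) and for 20.9% of all genes. The mean signal of 29 of the 53 genes lay under the lowest array median of 6.71. Of those 29, 3 were called, and of the 24 brighter genes 4 were called. Among all 11140 genes at or above this level 11.6% were called, so the share among all dimmer genes lay under the 7.24% of all genes.

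**Figure D1:**
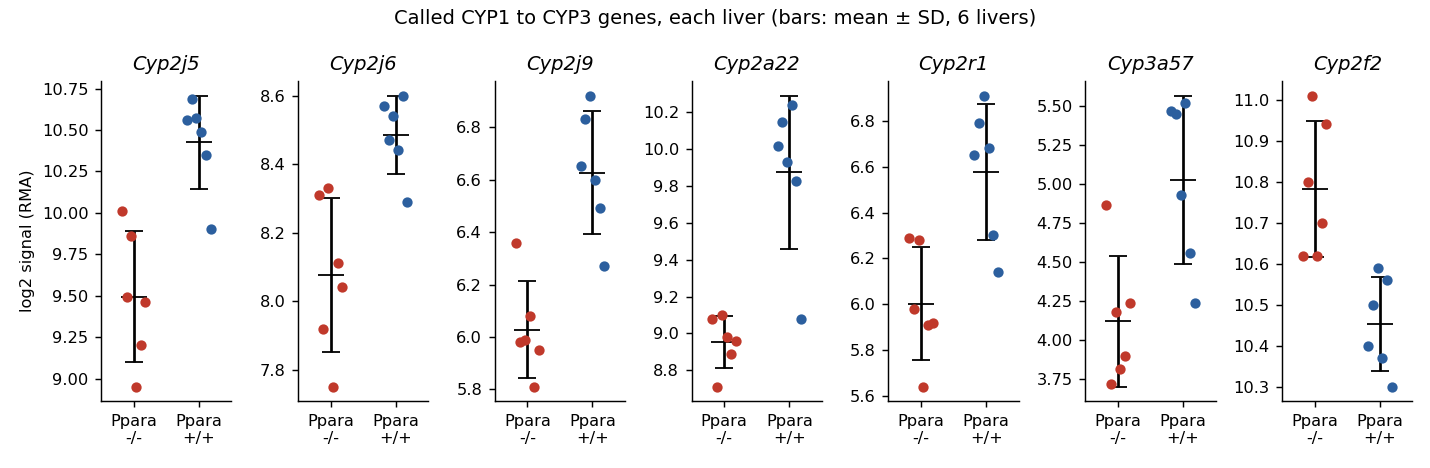
Log2 signal of the 7 called genes in each liver, Ppara-/- livers on the left and Ppara+/+ livers on the right of each panel, with mean and SD of 6 livers per genotype and a separate vertical scale per gene. Only for Cyp2f2 do the genotypes not overlap, with 10.62 as the lowest Ppara-/- liver and 10.59 as the highest Ppara+/+ liver.

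The targeted gene was examined first as a check of the labels. Ppara had signals of 9.84, 9.83, 9.86, 9.94, 9.86 and 9.66 in Ppara-/- livers, against 10.89, 10.92, 10.95, 10.84, 10.73 and 10.71 in Ppara+/+ livers, so that every Ppara-/- liver lay below every Ppara+/+ liver (difference -1.01, SE 0.06, limma adjusted p = 3.6e-08). Array medians ranged from 6.71 to 6.75. The 8 hepatocyte markers measured, among them Alb, showed 0 calls, and their mean signal lay between 13.36 and 13.39 in Ppara-/- livers, against 13.34 to 13.4 in Ppara+/+ livers. Of the markers of other cells, 0 of 7 erythroid, 0 of 10 granulocyte, 0 of 7 endothelial and 0 of 3 cholangiocyte genes were called. Of the 10 macrophage genes Csf1r rose by 0.23 and Cd5l by 0.40 (limma adjusted p = 0.0096 and 0.041), and Vsig4 had a difference of -0.25 that did not pass the test (limma adjusted p = 0.15). The call of Cd5l held in 3 of the 12 fits with 1 liver left out, with adjusted p up to 0.099 in the others, and was lost with the sex score as a covariate (adjusted p = 0.12). Of the 5 stellate and mesenchymal genes Des fell by 0.39 (limma adjusted p = 0.018). The mean macrophage signal lay between 9.13 and 9.31 in Ppara-/- livers, against 9.1 to 9.22 in Ppara+/+ livers, and the mean stellate and mesenchymal signal between 8.63 and 8.89 in Ppara-/- livers, against 8.71 to 9.02 in Ppara+/+ livers. Their part in the results on the P450 genes was not tested. In whole liver, fewer cells of a type and less RNA per cell cannot be told apart. By the signals of Xist and Y-linked genes, the Ppara-/- group held 5 females and 1 male (mouse 2), and the Ppara+/+ group held 3 females (mice 1, 5 and 6) and 3 males.

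The Cyp2j genes lie side by side on chromosome 4, and the 3 that fell, Cyp2j6, Cyp2j9 and Cyp2j5, were neighbours among the measured genes of the family in the order of the GRCm38.p6 gene table. Their promoters are shown because these genes moved together. The RefSeq table of this build gives 250 bases before and 50 after each gene start, and every sequence reads 5′ to 3′ in the direction of the gene. Capitals mark AGGTCA or its reverse complement, the hexamer to which PPARα and related nuclear receptors bind as a repeated pair.
Cyp2j6, chr4:96553602-96553901, minus strand: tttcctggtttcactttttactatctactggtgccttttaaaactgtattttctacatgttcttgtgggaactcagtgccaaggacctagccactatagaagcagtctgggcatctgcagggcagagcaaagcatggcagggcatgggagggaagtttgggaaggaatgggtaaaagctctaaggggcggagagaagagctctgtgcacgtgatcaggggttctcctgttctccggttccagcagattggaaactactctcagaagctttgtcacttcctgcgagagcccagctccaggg
Cyp2j9, chr4:96591436-96591735, minus strand: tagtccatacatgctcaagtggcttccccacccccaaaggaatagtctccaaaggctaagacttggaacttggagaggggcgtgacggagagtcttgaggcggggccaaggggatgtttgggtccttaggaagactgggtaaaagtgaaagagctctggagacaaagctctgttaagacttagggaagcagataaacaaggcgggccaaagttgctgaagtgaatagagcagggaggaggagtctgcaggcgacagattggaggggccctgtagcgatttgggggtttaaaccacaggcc
Cyp2j5, chr4:96664070-96664369, minus strand: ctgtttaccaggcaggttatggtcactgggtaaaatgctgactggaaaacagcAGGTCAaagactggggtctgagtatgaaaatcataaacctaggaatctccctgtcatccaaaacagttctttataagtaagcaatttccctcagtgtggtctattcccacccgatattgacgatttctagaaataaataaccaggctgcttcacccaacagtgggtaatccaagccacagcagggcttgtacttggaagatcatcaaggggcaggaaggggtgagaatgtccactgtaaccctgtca
Among the 3, AGGTCA occurred only in the Cyp2j5 window, starting 197 bases before the gene start. Searched on both strands, AGGTCA was found in the windows of 15 of the 44 genes of the family with a promoter in the table (34.1%), and in 5340 of all 32851 promoter windows (16.3%). Adjacent copies in the same direction, 1 base apart, the arrangement called DR1, were found in 0 of the 44 genes and in 13 windows of the table (0.0396%). A match of these letters does not show a binding site, and sequence outside the window was not searched.

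Cyp2j5, an arachidonic acid epoxygenase abundant in mouse kidney and liver, had signals of 10.01, 9.49, 9.86, 8.95, 9.2 and 9.46 in Ppara-/- livers, against 10.56, 10.69, 10.57, 10.49, 10.35 and 9.9 in Ppara+/+ livers. Only Ppara-/- mouse 1 reached into the range of Ppara+/+ livers, through Ppara+/+ mouse 6, and 5 of 6 Ppara-/- livers lay below every Ppara+/+ liver. The means were 9.5 ± 0.39 in Ppara-/- livers and 10.43 ± 0.28 in Ppara+/+ livers (SD, n = 6 each), 1.91-fold lower in Ppara-/- livers (difference -0.93, SE 0.17, limma adjusted p = 0.0040). Cyp2j9 had signals of 6.36, 5.98, 5.99, 6.08, 5.81 and 5.95 in Ppara-/- livers, against 6.65, 6.83, 6.92, 6.6, 6.49 and 6.27 in Ppara+/+ livers. The overlap again came from Ppara-/- mouse 1 and Ppara+/+ mouse 6 alone, and the difference was -0.60 (SE 0.11, limma adjusted p = 0.0036). Cyp2j6 had signals of 8.31, 7.92, 8.33, 7.75, 8.11 and 8.04 in Ppara-/- livers, against 8.57, 8.47, 8.54, 8.44, 8.6 and 8.29 in Ppara+/+ livers. Here Ppara-/- mice 1 and 3 lay just above the lowest Ppara+/+ liver, mouse 6, and the difference was -0.41 (SE 0.09, limma adjusted p = 0.016). These 3 genes were called whichever liver was left out, with adjusted p of at most 0.013 for Cyp2j5, 0.012 for Cyp2j9 and 0.043 for Cyp2j6. The remaining 3 genes of the subfamily, Cyp2j11, Cyp2j12 and Cyp2j13, were all under the array median and not called, with differences between -0.03 and -0.01.

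Cyp2a22, Cyp2a12 and Cyp2f2 follow each other in this order on chromosome 7 among the measured genes of the family. The first fell, the second did not pass the test and the third rose. Their promoters are shown because neighbours differed in direction.
Cyp2a22, chr7:26939337-26939636, minus strand: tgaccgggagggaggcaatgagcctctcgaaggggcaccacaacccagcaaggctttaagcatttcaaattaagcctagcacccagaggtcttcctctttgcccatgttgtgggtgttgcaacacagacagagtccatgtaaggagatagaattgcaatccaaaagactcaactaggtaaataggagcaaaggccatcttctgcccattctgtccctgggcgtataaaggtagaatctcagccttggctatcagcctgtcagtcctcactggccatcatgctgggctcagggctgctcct
Cyp2a12, chr7:27028840-27029139, plus strand: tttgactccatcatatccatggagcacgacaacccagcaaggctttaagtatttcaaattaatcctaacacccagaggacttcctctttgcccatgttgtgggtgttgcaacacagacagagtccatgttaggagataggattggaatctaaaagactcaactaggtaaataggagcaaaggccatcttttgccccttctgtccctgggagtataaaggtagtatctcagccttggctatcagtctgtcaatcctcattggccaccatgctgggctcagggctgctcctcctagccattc
Cyp2f2, chr7:27119705-27120004, plus strand: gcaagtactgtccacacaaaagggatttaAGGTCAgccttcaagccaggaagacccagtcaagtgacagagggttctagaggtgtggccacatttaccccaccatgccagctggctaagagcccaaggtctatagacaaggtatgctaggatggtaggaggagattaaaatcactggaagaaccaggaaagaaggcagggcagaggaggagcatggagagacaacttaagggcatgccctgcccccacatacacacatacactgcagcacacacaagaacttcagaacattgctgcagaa
In a global alignment the windows of Cyp2a22 and Cyp2a12 shared 262 identical bases over 311 aligned columns (84.2%), whereas the other pairs among these 6 windows shared between 47.2% and 52%. AGGTCA occurred in the Cyp2f2 window, 221 bases before the gene start, and in neither Cyp2a window.

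Cyp2a22 was the gene of the family with the smallest adjusted p. Its signals were 9.08, 8.71, 9.1, 8.98, 8.89 and 8.96 in Ppara-/- livers, against 10.02, 10.15, 9.93, 10.24, 9.83 and 9.08 in Ppara+/+ livers. Ppara-/- livers varied little, and Ppara+/+ mouse 6 lay within their range while the other Ppara+/+ livers lay above it. The means were 8.95 ± 0.14 in Ppara-/- livers and 9.87 ± 0.41 in Ppara+/+ livers (SD, n = 6 each), 1.89-fold lower in Ppara-/- livers (difference -0.92, SE 0.15, limma adjusted p = 0.0022). Leaving out any 1 liver kept the call, with adjusted p between 2e-06, without Ppara+/+ mouse 6, and 0.0076. Cyp2a12, which hydroxylates steroids and bile acids, had signals of 10.59, 10.81, 10.95, 11.06, 10.81 and 10.94 in Ppara-/- livers, against 10.5, 10.56, 10.63, 10.73, 10.86 and 10.52 in Ppara+/+ livers. The difference of 0.23 (SE 0.08, 95% interval 0.05 to 0.4) did not pass the test (limma adjusted p = 0.11). A probeset assigned to both Cyp2a5 and Cyp2a4, which cannot be told apart on it, had signals of 9.33, 10.35, 10.36, 10.88, 10.37 and 10.33 in Ppara-/- livers, against 9.44, 9.59, 9.54, 9.63, 9.73 and 10.01 in Ppara+/+ livers. All Ppara-/- livers except mouse 1 lay above every Ppara+/+ liver, and the difference of 0.61 (SE 0.20) did not pass the test over all probesets (limma adjusted p = 0.12).

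Cyp2f2, known from the oxidation of naphthalene in airway club cells and expressed in adult hepatocytes near the portal vein, was the only gene of the family that rose. Its signals were 10.62, 10.8, 11.01, 10.62, 10.7 and 10.94 in Ppara-/- livers, against 10.4, 10.5, 10.59, 10.37, 10.56 and 10.3 in Ppara+/+ livers. Every Ppara-/- liver lay above every Ppara+/+ liver, which held for 1 of the 53 genes and for 1.3% of all genes. The reverse, every Ppara-/- liver below every Ppara+/+ liver, held for 0 of the 53 genes and for 2.29% of all genes. The means were 10.78 ± 0.17 in Ppara-/- livers and 10.46 ± 0.12 in Ppara+/+ livers (SD, n = 6 each), 1.26-fold higher in Ppara-/- livers (difference 0.33, SE 0.08, limma adjusted p = 0.018, at most 0.049 with 1 liver left out).

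**Figure D2:**
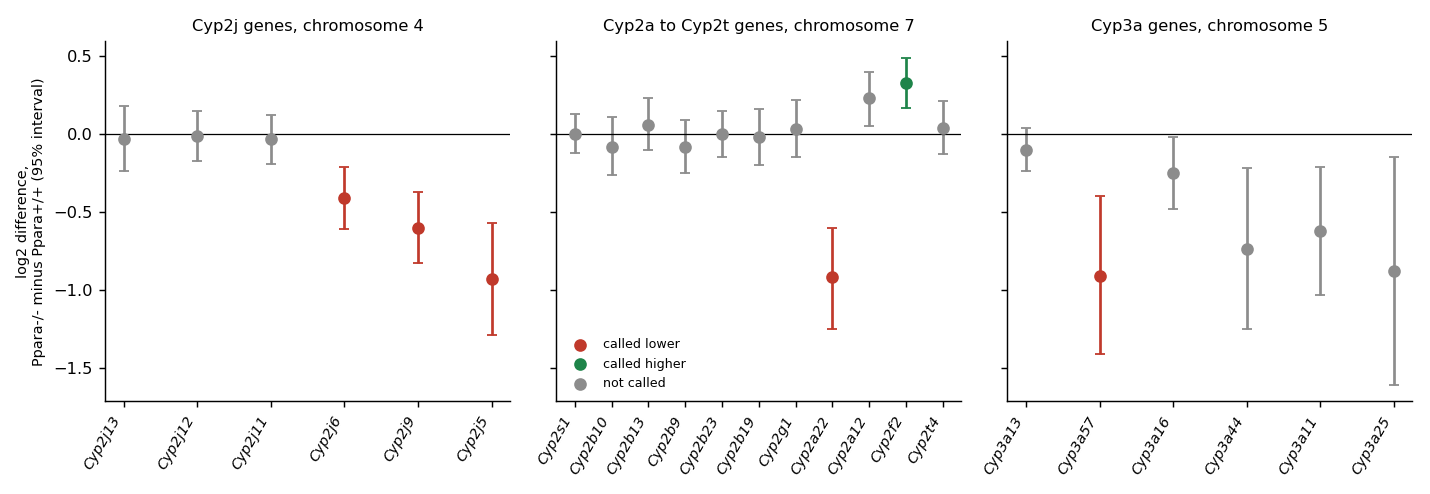
Log2 difference, Ppara-/- minus Ppara+/+, with its 95% interval for the measured genes of the family in the Cyp2j, Cyp2a to Cyp2t and Cyp3a groups, in their order along the chromosome and not to scale, with other genes and shared probesets left out. Cyp2j6, Cyp2j9 and Cyp2j5 stand together below 0, Cyp2a22 stands at -0.92 beside Cyp2a12 at 0.23 and Cyp2f2 at 0.33, and all Cyp3a genes lie below 0.

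Cyp2r1, a 25-hydroxylase of vitamin D, had signals of 6.29, 5.98, 6.28, 5.64, 5.91 and 5.92 in Ppara-/- livers, against 6.65, 6.79, 6.91, 6.68, 6.3 and 6.14 in Ppara+/+ livers. The groups overlapped through Ppara-/- mice 1 and 3 and Ppara+/+ mouse 6, and the difference was -0.58 (SE 0.14, limma adjusted p = 0.020). The call was lost without Ppara-/- mouse 5 or without Ppara+/+ mouse 2, with an adjusted p of at most 0.051, and with the sex score as a covariate (adjusted p = 0.06). The promoter window of Cyp2r1 held no AGGTCA. That of Cyp3a57, the remaining called gene, held 2 matches over both strands together, the first starting 174 bases before the gene start.

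The Cyp3a subfamily holds the main steroid and drug oxidases of the liver, and Cyp3a16 is known as a form of fetal mouse liver. All 6 measured genes had negative differences, with a median of -0.68, and 1 of them, Cyp3a57, was called. Cyp3a57 had signals of 4.87, 3.72, 4.18, 3.82, 3.9 and 4.24 in Ppara-/- livers, against 5.47, 5.45, 4.93, 5.52, 4.56 and 4.24 in Ppara+/+ livers, all under the array median. Ppara-/- mouse 1 lay above Ppara+/+ mice 5 and 6, and the difference was -0.91 (SE 0.24, limma adjusted p = 0.032). This call held in 4 of the 12 fits with 1 liver left out, where the liver left out was mouse 1 or 3 of Ppara-/- or mouse 5 or 6 of Ppara+/+, and the adjusted p reached 0.079 in the others. It was also lost with the sex score as a covariate (adjusted p = 0.087), with the 6 lower and 6 higher animal numbers as a block (adjusted p = 0.062) and with an intensity trend and robust fit (adjusted p = 0.063).

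Cyp3a11, the main adult form, had signals of 10.3, 9.59, 9.85, 8.95, 9.33 and 9.35 in Ppara-/- livers, against 10.38, 10.37, 10.21, 10.3, 10.2 and 9.59 in Ppara+/+ livers. Ppara-/- mouse 1 stood with the Ppara+/+ livers and Ppara+/+ mouse 6 with the Ppara-/- livers, and the difference of -0.62 (SE 0.19, 95% interval -1.03 to -0.21) did not pass the test (limma adjusted p = 0.068). Cyp3a25 had signals of 11.56, 10, 10.67, 9.87, 9.77 and 10.39 in Ppara-/- livers, against 11.65, 11.88, 11.4, 11.87, 10.74 and 10.01 in Ppara+/+ livers. The same liver of each genotype stood with the other genotype, and Ppara+/+ mouse 5, at 10.74, also lay below Ppara+/+ mice 1 to 4. The difference was -0.88 (SE 0.34, 95% interval -1.61 to -0.15, limma adjusted p = 0.15). Cyp3a44 gave a difference of -0.74 (SE 0.24, limma adjusted p = 0.082) and Cyp3a16 one of -0.25 (SE 0.11, limma adjusted p = 0.20). Ppara-/- mouse 1 was the highest Ppara-/- liver and Ppara+/+ mouse 6 the lowest Ppara+/+ liver for all 6 Cyp3a genes. Without Ppara-/- mouse 1, 5 of the 6 were called lower, and without Ppara+/+ mouse 6, 4 were. Close copies in this subfamily also shared probesets. A probeset for Cyp3a59, Cyp3a57 and Cyp3a25 gave a difference of -0.98 (SE 0.40, limma adjusted p = 0.23), one for Cyp3a41a, Cyp3a41b and Cyp3a44 gave -0.60 (SE 0.23, limma adjusted p = 0.21), and one that adds Cyp3a11 to these gave -0.62 (SE 0.24, limma adjusted p = 0.20).

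These 2 livers stood apart across the families, and over all genes as well. On the first principal component, the main axis of variation between livers over all genes, Ppara-/- mouse 1 was at -1.86 and the other Ppara-/- livers at 9.82 to 20.87. On the same axis Ppara+/+ mouse 6 was at 3.32 and the other Ppara+/+ livers at -21.06 to -5.22. Ppara-/- mouse 1 was the highest Ppara-/- liver for 28 of the 53 genes (52.8%), against 22.1% of all genes, and Ppara+/+ mouse 6 was the lowest Ppara+/+ liver for 23 (43.4%), against 20.8% of all genes. Without Ppara-/- mouse 1, 15 genes were lower and 2 higher, against 5.75% of all genes called lower and 6.89% called higher. All 7 called genes were among these 17, and the 10 further ones were Cyp1a2, Cyp2c37, Cyp2c50, Cyp2c54, Cyp2e1, Cyp3a11, Cyp3a16, Cyp3a25 and Cyp3a44, which were lower, and Cyp2a12, which was higher. Without Ppara+/+ mouse 6, 12 genes were lower and 1 higher, against 5.67% of all genes called lower and 4.25% called higher, and again all 7 called genes were among them.

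For several of these genes the signal followed the animal number in the labels as well as the genotype. Cyp1a2, an aryl hydrocarbon receptor target, had signals of 6.86, 5.17, 5.19, 5.12, 5.05 and 5.17 in Ppara-/- livers, against 6.17, 6.35, 6.3, 6.24, 5.34 and 5.12 in Ppara+/+ livers. The livers from 6.17 to 6.86 were Ppara-/- mouse 1 (KO_266) and Ppara+/+ mice 1 to 4 (WT_265 to WT_272), whereas the livers with higher animal numbers, KO_273 to KO_277, WT_280 and WT_281, all lay between 5.05 and 5.34. The difference over all livers was -0.49 (SE 0.30, 95% interval -1.14 to 0.16) and did not pass the test (limma adjusted p = 0.41). Within the 6 lowest animal numbers, with 2 Ppara-/- and 4 Ppara+/+ livers, it was -0.25 (limma adjusted p = 0.83), and within the 6 highest, with 4 Ppara-/- and 2 Ppara+/+ livers, it was -0.10 (limma adjusted p = 0.74). The 2 Ppara-/- livers of the lower set were KO_266, at 6.86 and above its 4 Ppara+/+ livers, and KO_273, at 5.17 and below them. Cyp2e1, the ethanol oxidase, had signals of 12.86, 12.21, 12.35, 12.19, 12 and 12.31 in Ppara-/- livers, against 12.9, 12.86, 12.73, 12.89, 12.53 and 12.34 in Ppara+/+ livers. Its difference was -0.39 (SE 0.13, limma adjusted p = 0.091), and it was -0.31 within the lower and -0.22 within the higher animal numbers. For Cyp3a25 the difference was -0.92 within the lower and -0.20 within the higher animal numbers, and for Cyp3a11 it was -0.37 and -0.53. In the lower set KO_266 was at 11.56 and KO_273 at 10 for Cyp3a25. With the animal number as a covariate Cyp2c54, Cyp2e1, Cyp3a11, Cyp3a25 and Cyp3a44 were also called lower, with limma adjusted p of 0.024, 0.014, 0.023, 0.026 and 0.0059. With the lower and higher animal numbers as a block none of these genes was called, with limma adjusted p of 0.13, 0.18, 0.14, 0.31 and 0.15. The sex score as a covariate also gave no call among them (limma adjusted p from 0.11 to 0.32). All livers read as male, Ppara-/- mouse 2 and Ppara+/+ mice 2 to 4, lay in the lower set, and the higher set held females only. A difference between the sets therefore cannot be told apart from one between the sexes. What the animal number stands for is not in the labels, and whether it or sex accounts for these results was not tested. The differences of the called genes had the same sign within both sets of animal numbers, at -0.83 and -0.76 for Cyp2j5, -0.39 and -0.39 for Cyp2j6, -0.58 and -0.42 for Cyp2j9, -1.19 and -0.48 for Cyp2a22, -0.62 and -0.28 for Cyp2r1, -1.05 and -0.36 for Cyp3a57, and 0.24 and 0.39 for Cyp2f2 in the lower and the higher animal numbers. These 7 genes were chosen by the fit over all livers, so their signs and counts within parts of the same livers are no separate test. Within the lower animal numbers 3 of the 7 were called, Cyp2a22, Cyp2j5 and Cyp2r1 (limma adjusted p of 0.0024, 0.027 and 0.041). Over all genes, not chosen in this way, 0.818% were called lower and 0.15% higher. Within the higher animal numbers limma called 0 of the 7 (adjusted p from 0.092 to 0.56), against 0.532% of all genes called lower and 0.587% called higher.

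**Figure D3:**
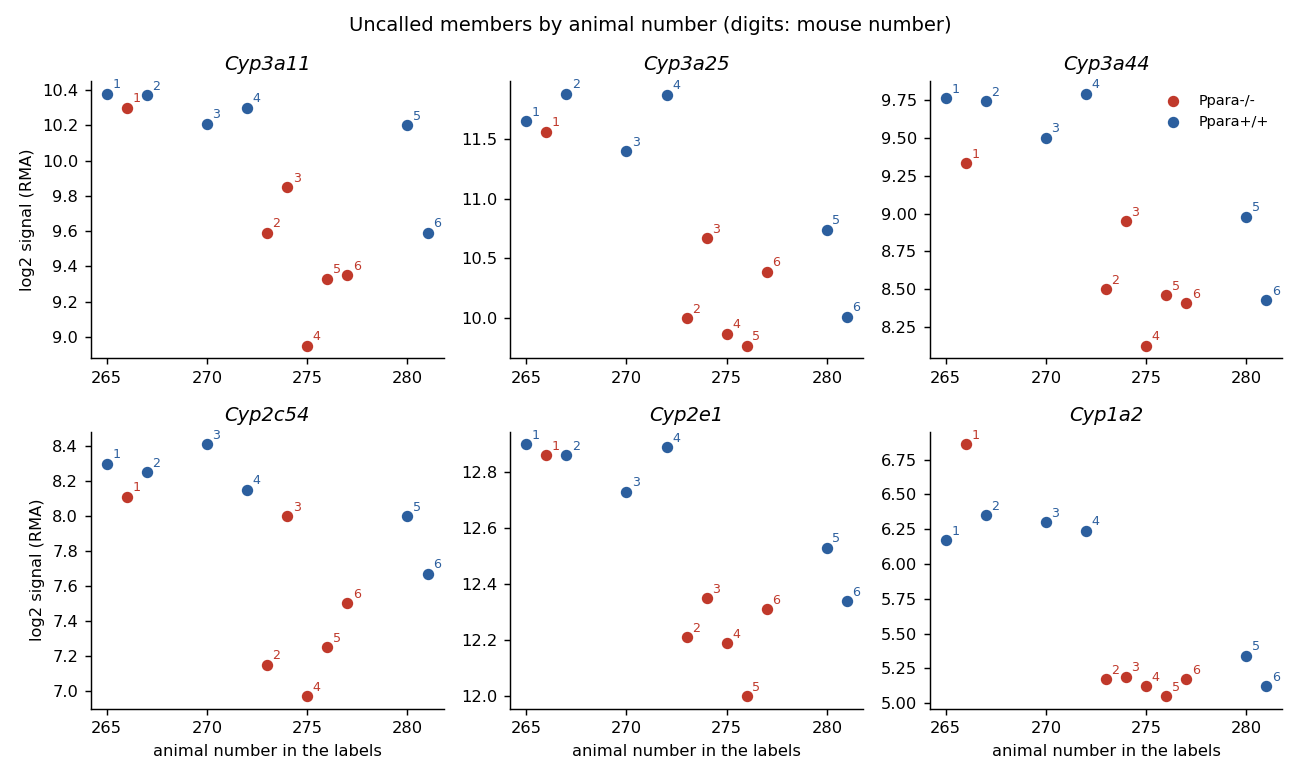
Log2 signal of 6 genes of the family that were not called, by the animal number in the labels, with Ppara-/- livers in red and Ppara+/+ livers in blue, each point labelled by its mouse number. In every panel Ppara-/- mouse 1 (KO_266) lies nearer to WT_265 and WT_267 than any other Ppara-/- liver lies to them. For Cyp1a2 it is at 6.86, and KO_273 to KO_277, WT_280 and WT_281 lie between 5.05 and 5.34.

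Among the 13 Cyp2c genes, 9 differences were negative and 0 were called by limma, with an unadjusted p under 0.05 for 4 of them. Cyp2c54 came nearest to the threshold, with signals of 8.11, 7.15, 8, 6.97, 7.25 and 7.5 in Ppara-/- livers, against 8.3, 8.25, 8.41, 8.15, 8 and 7.67 in Ppara+/+ livers. Ppara-/- mice 1 and 3 reached the range of the Ppara+/+ livers, and the difference was -0.63 (SE 0.19, limma adjusted p = 0.053). Cyp2c37 gave -0.24 (SE 0.14, limma adjusted p = 0.38) and Cyp2c50 also -0.24 (SE 0.11, limma adjusted p = 0.23). Cyp2c70, which makes the muricholic acids of mouse bile, had the highest mean signal of the subfamily. It lay between 12.41 and 12.48 in Ppara-/- livers, against 12.27 to 12.43 in Ppara+/+ livers, a difference of 0.10 (SE 0.04) that did not pass the test (limma adjusted p = 0.14). A probeset shared by Cyp2c69, Cyp2c67, Cyp2c68 and Cyp2c40 gave a difference of -0.01 (SE 0.05, limma adjusted p = 0.95).

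Of the 10 Cyp2d genes, which lie on chromosome 15 as Ppara does and of which 2, Cyp2d13 and Cyp2d37-ps, are transcribed pseudogenes in the gene table, 0 were called by limma, 2 had an unadjusted p under 0.05, and their differences ranged from -0.27, in the pseudogene Cyp2d13, to 0.04. Cyp2d26, with the highest mean signal of the subfamily, lay between 12.97 and 13.1 in Ppara-/- livers, against 12.99 to 13.02 in Ppara+/+ livers (difference 0.03, 95% interval -0.05 to 0.11, limma adjusted p = 0.69). Cyp2d9, a testosterone hydroxylase of male mouse liver, gave -0.25 (SE 0.10, limma adjusted p = 0.19), and was called only without Ppara+/+ mouse 6 (adjusted p = 0.028) among the fits with 1 liver left out. The 5 Cyp2b genes, targets of CAR in the adult, were all under the array median, and 0 were called by limma or had an unadjusted p under 0.05, with differences between -0.08 and 0.06. Cyp2b23, with the highest mean signal of them, lay between 5.54 and 5.77 in Ppara-/- livers, against 5.35 to 5.83 in Ppara+/+ livers.

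Among the subfamilies with a single gene only Cyp2f2 and Cyp2r1 were called. Cyp2e1, described above, was not called, and neither were the 6 that follow. Cyp1b1, known from stromal cells, gave a difference of -0.05 (95% interval -0.24 to 0.13). Cyp2g1, known from the olfactory mucosa, gave 0.03 (95% interval -0.15 to 0.22), and Cyp2s1, known from epithelia, gave 0.00 (95% interval -0.12 to 0.13). Cyp2t4 gave 0.04 (95% interval -0.13 to 0.21), Cyp2u1, a fatty acid hydroxylase, 0.04 (95% interval -0.1 to 0.17) and Cyp2w1 0.06 (95% interval -0.18 to 0.3), with limma adjusted p from 0.8 to 0.98 for these 6 genes. Of them only Cyp2s1 reached the array median.

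**Figure D4:**
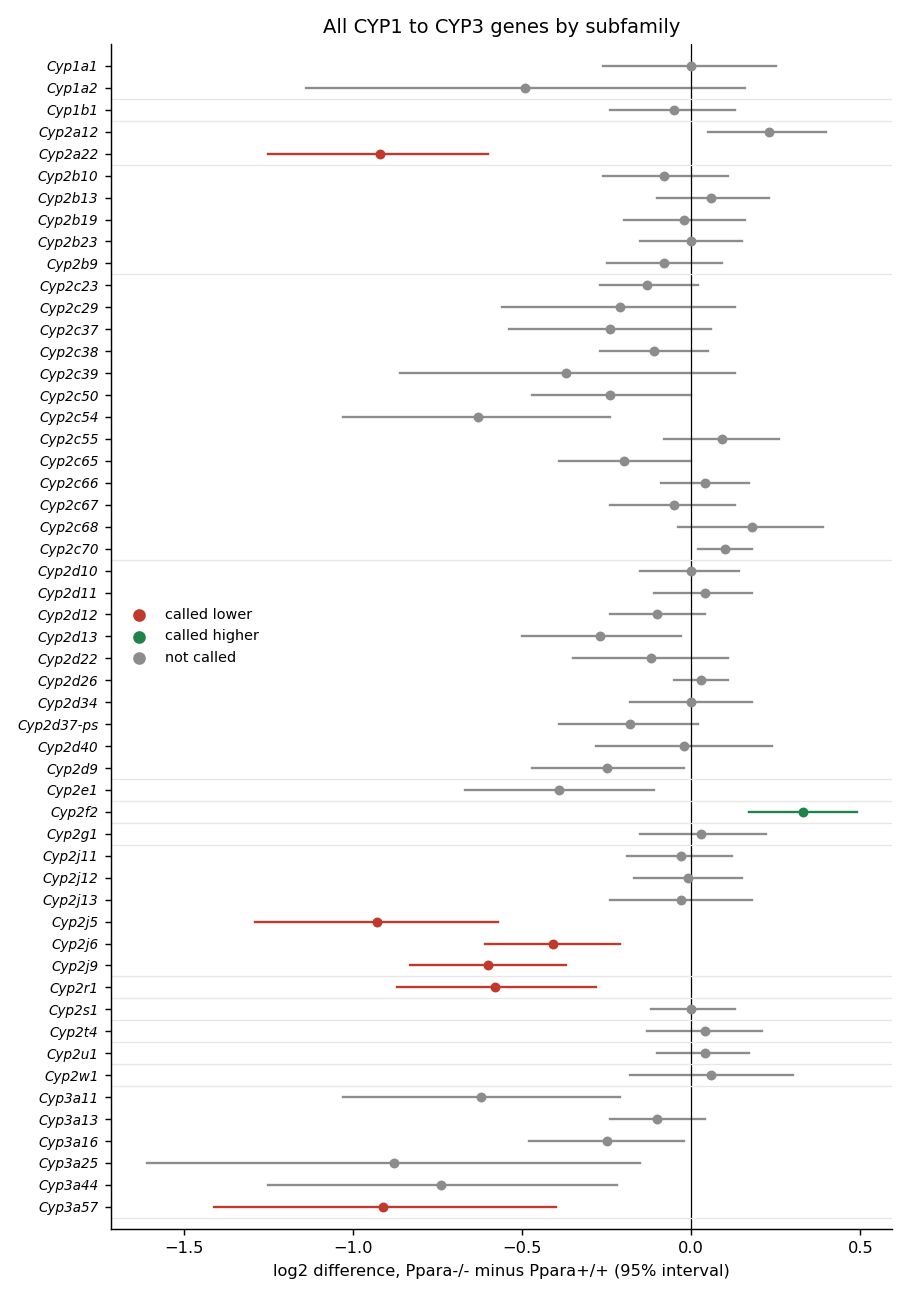
Log2 difference, Ppara-/- minus Ppara+/+, with its 95% interval for all 53 genes, grouped by subfamily, with called lower genes in red, the called higher gene in green and the others in grey. The intervals are widest in Cyp3a25, from -1.61 to -0.15, and in Cyp1a2, from -1.14 to 0.16, and those of the Cyp2b and Cyp2d genes lie between -0.5 and 0.24.

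The partners and regulators of these enzymes were read from lists of other genes, to be set beside the 3.82% of all genes called lower and the 3.42% called higher. Of 6 measured electron donors and partners of P450 enzymes 1 was called, Cyb5b, a cytochrome b5 of the mitochondrial outer membrane. Cyb5b had signals of 9.75, 9.38, 9.45, 9.23, 9.33 and 9.28 in Ppara-/- livers, against 10.2, 10.07, 10.15, 10.1, 9.97 and 9.72 in Ppara+/+ livers, with overlap through Ppara-/- mouse 1 alone (difference -0.63, SE 0.09, limma adjusted p = 0.00087). Of 19 receptors and factors known to control CYP1 to CYP3 genes 4 rose and 2 fell, and the median difference over the list was -0.02, against 0.01 over all genes. Ahr, the aryl hydrocarbon receptor, had signals of 10.32, 10.84, 10.82, 10.78, 10.63 and 10.62 in Ppara-/- livers, against 10.17, 10.1, 10.23, 10.16, 10.17 and 10.12 in Ppara+/+ livers, with no overlap (difference 0.51, SE 0.08, limma adjusted p = 0.0010). Nr3c1, the glucocorticoid receptor, rose by 0.30 (SE 0.06, limma adjusted p = 0.0083), the nuclear receptor gene Rora by 0.29 (SE 0.06, limma adjusted p = 0.0091), and Stat5b, which carries growth hormone signals, by 0.25 (SE 0.06, limma adjusted p = 0.023). The call of Stat5b was lost without Ppara-/- mouse 2, 5 or 6 (adjusted p of at most 0.059). Nr1h4, the bile acid receptor FXR, gave -0.31 (SE 0.06, limma adjusted p = 0.0082) and Onecut1, the hepatocyte factor HNF6, gave -0.37 (SE 0.09, limma adjusted p = 0.018). Of 3 measured aryl hydrocarbon receptor targets outside the family 0 were called. Tiparp, one of them, lay between 7.77 and 9.35 in Ppara-/- livers, against 7.84 to 8.67 in Ppara+/+ livers (difference 0.42, SE 0.22, limma adjusted p = 0.30), and Cyp1a1 itself lay between 5.14 and 5.67 in Ppara-/- livers, against 4.91 to 5.63 in Ppara+/+ livers.

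Since several of these P450 genes are zonated in the adult liver, zonated genes outside the family were also counted. Of 10 pericentral genes 3 fell, against 3.82% of all genes, with a median difference of -0.09 over the list, against 0.01 over all genes. Tbx3, a transcription factor, gave -0.50 (SE 0.10, limma adjusted p = 0.0090), Gulo, the last enzyme of vitamin C synthesis, -0.64 (SE 0.15, limma adjusted p = 0.017) and Lgr5, a receptor of Wnt signaling, -0.21 (SE 0.06, limma adjusted p = 0.036). The call of Lgr5 held in 3 of the 12 fits with 1 liver left out, where this was mouse 1 or 3 of Ppara-/- or mouse 6 of Ppara+/+, with adjusted p up to 0.091 in the others, and the calls of Gulo and Lgr5 were lost with the sex score as a covariate (adjusted p = 0.054 and 0.099). The call of Lgr5 was also lost with the 6 lower and 6 higher animal numbers as a block (adjusted p = 0.092). Of 7 periportal genes 1 rose, against 3.42% of all genes, and the median difference over the list was -0.01. The gene that rose was Hal, the histidine ammonia-lyase. Hal lay between 10.28 and 11.27 in Ppara-/- livers, against 9.52 to 10.43 in Ppara+/+ livers (difference 0.93, SE 0.17, limma adjusted p = 0.0050). Pck1, an enzyme of gluconeogenesis in the same list, lay between 8.56 and 10.68 in Ppara-/- livers, against 9.18 to 11.43 in Ppara+/+ livers. Its difference of -1.38 (SE 0.42) ran the other way and did not pass the test (limma adjusted p = 0.061), which it did without Ppara-/- mouse 1 or without Ppara+/+ mouse 6 (adjusted p = 0.011 for each). Of the 34 P450 genes outside CYP1 to CYP3, 7 fell and 0 rose, and 3 of those 7, Cyp4a10, Cyp4a31 and Cyp4a14, had differences between -3.86 and -3.76, against -0.93 for Cyp2j5 as the most lowered gene of the CYP1 to CYP3 families.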

How the data were processed

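Total RNA of 12 whole fetal livers was hybridized by the authors to Affymetrix Mouse Gene ST arrays, 1 liver per array. The deposited values are log2 signals, made by the authors with RMA, which corrects background, normalizes between arrays and gives 1 value per probeset. Neither the version of RMA nor a genome build is stated in the sources used here. Arrays carry no read depth, so that their number, 6 per genotype, limits the precision. Livers that share a litter may not be independent, and p-values do not allow for that.

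Of 35556 probesets, 21789 had 1 gene symbol in the platform's probe table, 1621 several and 12146 none. The probeset with the highest mean stood for each gene, giving 19938 genes. Dim genes were kept, and each of the 53 P450 genes studied had 1 such probeset. All 53 matched the GRCm38.p6 gene table by gene ID. A further 5 probesets carried several symbols of these families and were fitted with all probesets. Livers were assigned to a genotype by their labels. The genotypes were compared with limma 3.58.1 (lmFit, eBayes, two-sided) under R 4.3.3, without covariates and with Benjamini-Hochberg adjustment over all genes at 0.05. The procedure was tested on simulated data. Tables were made with pandas 2.3.3 and figures with matplotlib 3.10.9 under Python 3.11.15.

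The genes and lists were chosen with earlier results of these data known. Genes were named where called, where called with any 1 liver left out, or where brightest in their subfamily, and in other lists where called. Tiparp, Pck1, Vsig4, Alb, Cyp1a1, Cyp2d13, Cyp2d37-ps and the Cyp2j11 to Cyp2j13 genes were named outside this. So were Ppara, the genes of shared probesets and Cyp2c29, Cyp2c39, Cyp2d40 and Cyp3a13, which held a liver that stood apart. The plan was to name the genes with the smallest p in each other list, called or not, and Tiparp, Pck1 and Vsig4 were among these. The alternatives tried were a second quantile normalization, a shift to equal medians, removal of genes under the median signal, the mean of all probesets, an intensity trend with robust fit, array weights, a block for the mouse number, covariates (a sex score of Xist minus the mean of Y-linked genes, the animal number, the 6 lower and 6 higher animal numbers, erythroid markers), the exact Mann-Whitney test, and each liver left out. Fits within the lower and higher animal numbers and over all probesets were added after seeing the data.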

Additional observations from a re-analysis of the deposited data

Results flagged for a closer look

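Of 106 sets of 6 livers, 1 per genotype for each of the 53 genes, 9 held a liver that stood apart from the other 5 by more than Dixon's critical ratio for 6 values, where chance flags about 1 in 20. In 2 of them this was Ppara-/- mouse 1, with 6.86 for Cyp1a2, against 5.05 to 5.19 in the other Ppara-/- livers, and 11.39 for Cyp2c37, against 10.32 to 10.68. In Ppara+/+ livers mouse 6 was low for Cyp2a22, at 9.08 with the others from 9.83 to 10.24, for Cyp3a11, at 9.59 with the others from 10.2 to 10.38, and for Cyp3a13, at 10.14 with the others from 10.39 to 10.52. Ppara+/+ mouse 5 was high for 2 Cyp2c genes, Cyp2c29, at 5.13 with the others from 3.94 to 4.21, and Cyp2c39, at 8.74 with the others from 7.05 to 7.58. The remaining flags were Cyp2d40 in Ppara+/+ mouse 3, at 6.31 with the others from 6.66 to 6.87, and Cyp2s1 in Ppara+/+ mouse 2, at 7.07 with the others from 6.78 to 6.88.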

How the results depend on the processing

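The count of lowered genes was 6 and that of raised genes 1. With array weights 14 were lower, with the mouse number as a replicate block 10, and with the animal number as a covariate 11. The exact Mann-Whitney test called 0 lower and 0 higher after adjustment, since the smallest p that 6 against 6 livers allow is 0.0022. Its smallest adjusted value over all genes was 0.06. The raised genes were 2 with genes under the median signal removed and 2 with an intensity trend and robust fit. With 1 liver left out the lowered genes numbered 4 to 15, the highest without Ppara-/- mouse 1 and 12 without Ppara+/+ mouse 6, and the raised genes 1 to 2. The other settings gave 4 to 7 lowered genes and 1 raised. The labels do not say that a mouse number marks a shared litter or day, and the numbers were not taken to pair the livers: the deviations of same-numbered livers from the genotype means correlated by 0.019 to 0.39, with 4 of 6 pairs over 0.1, and 3 of 6 correlated best with their own number. Differences near 0 changed sign in some fits, and the cause was not tested. With quantile normalization Cyp2b23 was at -0.01. With array weights Cyp2b23 was at -0.03 and Cyp2u1 at -0.01. With 1 liver left out Cyp1b1 ranged from -0.10 to 0.03, Cyp2b23 from -0.06 to 0.04, Cyp2g1 from -0.02 to 0.08, Cyp2s1 from -0.02 to 0.04, Cyp2t4 from -0.01 to 0.08, Cyp2u1 from -0.01 to 0.07 and Cyp2w1 from 0.00 to 0.13. Within the lower animal numbers Cyp2b23 was at -0.03, Cyp2c37 at 0.01, Cyp2g1 at -0.02 and Cyp2s1 at -0.04, and within the higher Cyp2t4 was at -0.11 and Cyp2w1 at -0.15. Precision is limited by 6 arrays per genotype, and dim probesets carry little signal over background.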
